A study of Mus musculus with 4 samples.

Results

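Tox, Nr4a1, Nr4a2, Nr4a3, Rgs16, Id2, Bhlhe40, Tbx21, Eomes and Prdm1 are regulators of the effector and exhausted states of T cells. They were taken by symbol, and all 10 were found among the 32285 genes of the count tables. Their transcripts were counted as unique molecular identifiers (UMIs) in single-cell RNA-seq libraries of mouse tumours, made with a 3′ droplet protocol. Nanocapsule 1 and Nanocapsule 2 came from tumours that received enzyme-loaded particles, and Control 1 and Control 2 from tumours without them. All 4 libraries came from C57Bl6 mice of 6 to 8 weeks. The labels give no genotype, tumour line, enzyme, dose or time of sampling, and do not say how many animals stand behind a library, so p-values measure the spread between these libraries.

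T and NK barcodes were those with at least 1000 UMIs in all and at least 2 UMIs over Cd3d, Cd3e, Cd3g, Trac and Ncr1. This rule found 51 and 66 barcodes in the Nanocapsule libraries and 22 and 79 in the Control libraries, 218 of 10942 barcodes. Of these, 13 also carried the signal of another class: 3 and 7 in the Nanocapsule libraries, and 0 and 3 in the Control libraries. They were set aside as mixed, which left 205 lymphoid-only barcodes, 48 and 59 in the Nanocapsule libraries and 22 and 76 in the Control libraries. The lymphoid-only set made up 1.76% and 2.94% of barcodes in the Nanocapsule libraries and 0.529% and 3.70% in the Control libraries. The label calls all cells cancer cells, and 8198 barcodes were melanocytic by Dct, Pmel, Mlana, Tyrp1 and Tyr, while myeloid, B, dendritic and stromal barcodes were present too. In the lymphoid-only barcodes the sum of other T and NK markers was 4584 and 6003 CPM, the UMIs per 1000000 UMIs of the set, in the Nanocapsule libraries, against 4459 and 4775 CPM in the Control libraries. B markers had 0 and 1 UMIs in the Nanocapsule libraries and 0 and 1 in the Control libraries, and myeloid markers had 6 and 2 UMIs against 1 and 2. Melanocytic markers were at 64.1 and 47.1 CPM in the Nanocapsule libraries and at 296 and 249.6 CPM in the Control libraries, and their part in the results was not tested. The set was defined by upper limits on these B, myeloid and melanocytic markers, so low values were in part fixed by the selection. The lymphoid-only barcodes were deeper in the Nanocapsule libraries, with medians of 4747 and 6811 UMIs, than in the Control libraries, with 2704 and 4222 UMIs. Lymphoid-only barcodes with exactly 2 UMIs over the rule's genes, just inside it, numbered 3 and 2 in the Nanocapsule libraries and 2 and 2 in the Control libraries. Barcodes with exactly 1, just outside it, and no melanocytic, myeloid, B or stromal signal numbered 1 and 4 against 3 and 6. Of the latter, 0 and 4 in the Nanocapsule libraries and 2 and 5 in the Control libraries had a UMI of Trbc1, Trbc2, Cd2 or Lck. The libraries shared between 3 and 15 barcode sequences pairwise. With 2 libraries a group, an exact permutation test cannot go below p = 0.333, so adjusted p-values come from edgeR's quasi-likelihood test over all genes, with Benjamini-Hochberg adjustment.

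Chronic antigen exposure keeps the T cell receptor signalling, which drives NFAT into the nucleus. NFAT induces Tox and the Nr4a receptors, and these factors sustain the inhibitory receptors and the altered chromatin of exhausted CD8 T cells. Tbx21 and Eomes, with Id2, Prdm1 and Bhlhe40, set the balance of effector and memory fates and also serve NK cells.

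Promoter sequences of 8 of the 10 genes were found in the RefSeq table for GRCm38.p6, which spans 250 bases before to 50 bases after each start; Tox and Bhlhe40 had no entry. Those of the Nr4a family are shown because its 3 members share a letter pattern there, and that of Rgs16 because it was the called gene. Capitals mark TGACG or its reverse complement, the core pentamer of the cyclic AMP response element. Each line runs 5′ to 3′ on the gene's strand and holds no base of an annotated exon; the stretch of Nr4a1 lies inside the gene, chr15:101254269-101274795, in intron sequence of a longer transcript.
Nr4a1 (chr15:101266596-101266845, plus strand): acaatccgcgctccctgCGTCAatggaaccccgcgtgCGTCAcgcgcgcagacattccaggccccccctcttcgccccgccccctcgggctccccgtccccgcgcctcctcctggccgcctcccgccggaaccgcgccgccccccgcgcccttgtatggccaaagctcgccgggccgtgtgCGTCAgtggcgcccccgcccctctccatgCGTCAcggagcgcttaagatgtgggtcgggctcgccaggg
Nr4a2 (chr2:57124004-57124253, minus strand): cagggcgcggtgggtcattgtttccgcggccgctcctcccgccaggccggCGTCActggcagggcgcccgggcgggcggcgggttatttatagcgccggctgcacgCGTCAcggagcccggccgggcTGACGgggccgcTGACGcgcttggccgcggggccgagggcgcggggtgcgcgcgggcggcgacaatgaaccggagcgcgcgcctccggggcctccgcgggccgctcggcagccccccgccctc
Nr4a3 (chr4:48045055-48045152, plus strand): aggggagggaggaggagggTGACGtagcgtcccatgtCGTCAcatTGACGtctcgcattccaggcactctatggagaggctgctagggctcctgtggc
Rgs16 (chr1:153740103-153740348, plus strand): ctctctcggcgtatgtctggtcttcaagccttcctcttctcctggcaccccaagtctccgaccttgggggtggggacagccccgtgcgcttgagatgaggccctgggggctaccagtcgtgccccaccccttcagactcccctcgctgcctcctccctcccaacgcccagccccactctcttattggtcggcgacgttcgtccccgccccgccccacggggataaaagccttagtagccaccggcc
The pentamer, searched on both strands, stood 4 times each in the 300-base windows of Nr4a1, Nr4a2 and Nr4a3, and for Nr4a3 3 of these fall in the stretch shown. It stood in 4 of the 8 windows, the fourth being that of Prdm1 with 1 match, and in 20.8% of all 32851 promoters. At least 3 matches stood in 3 of the 8 windows and in 1.03% of all promoters. This pentamer was chosen after the letters had been seen. The whole element TGACGTCA, which would count as a match of the pentamer on each strand, stood in 0 of the 8 windows and in 1.79% of all promoters. The AP-1 element TGANTCA stood in the Prdm1 window alone among the 8, against 7.81% of all promoters. The core of the NFAT site, GGAAA, stood in 3 of the 8 windows, those of Nr4a2, Eomes and Tbx21, and in 61.3% of all promoters. Neither AAAGGTCA, the element that NR4A monomers bind, nor CACGTG, the E-box bound by Bhlhe40, stood in any of the 8, against 1.51% and 7.15% of all promoters. A match is a description of letters, not a bound site.

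Rgs16, a GTPase-activating protein that ends signalling of G-protein-coupled receptors, lies at chr1:153740349-153745468 on the plus strand of GRCm38. It had 37 and 156 UMIs in lymphoid-only barcodes of the Nanocapsule libraries, against 2 and 2 UMIs in those of the Control libraries. Relative to all UMIs this was 119 and 237 CPM in the Nanocapsule libraries, against 24.7 and 5.43 CPM in the Control libraries. Both Nanocapsule libraries lay above both Control libraries. The 95% Poisson intervals, which cover counting error only, ran from 83.5 to 163 CPM in Nanocapsule 1 and from 201 to 278 CPM in Nanocapsule 2. Those of the Control libraries ran from 2.99 to 89.2 CPM in Control 1 and from 0.657 to 19.6 CPM in Control 2, so that the interval of Nanocapsule 1 overlapped that of Control 1. Means were 177.9 ± 83.9 CPM in the Nanocapsule libraries and 15.1 ± 13.6 CPM in the Control libraries (SD, n = 2 each). Rgs16 rose by a log2 fold of 4.30 ± 0.61 (SE; edgeR, adjusted p = 0.0119), in 2 of 2 Nanocapsule libraries. Rgs16 passed the filter on low counts through the Nanocapsule libraries alone. It was the only one of the 10 genes called, by edgeR and also by DESeq2. Over all 5311 genes tested edgeR called 6, a share of 0.113%. The other 5 were Hist1h1b, Pclaf and Penk, which rose, and Ifit3 and Slfn5, which fell. With the mixed barcodes included, edgeR called 3 of 7094 genes, or 0.0423%, and Rgs16 was 1 of them (log2 fold 4.11 ± 0.59; adjusted p = 0.0364). The call in lymphoid-only barcodes was lost without Control 2, where the log2 fold was 3.01 (edgeR, adjusted p = 0.736), and with the melanocytic limit lowered to 0.1 times the median (log2 fold 4.22; edgeR, adjusted p = 0.0573). Of 13 alternatives in which Rgs16 was tested, 9 kept the call. A limit of 20% mitochondrial UMIs and a melanocytic limit of 0.5 times the median left the same 48, 59, 22 and 76 barcodes. These fits could thus only repeat the call. At up to 10000 UMIs and after thinning Rgs16 was not tested, so these are not among the 13. Over the 13 the log2 fold lay between 3.01 and 5.05.

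**Figure D1:**
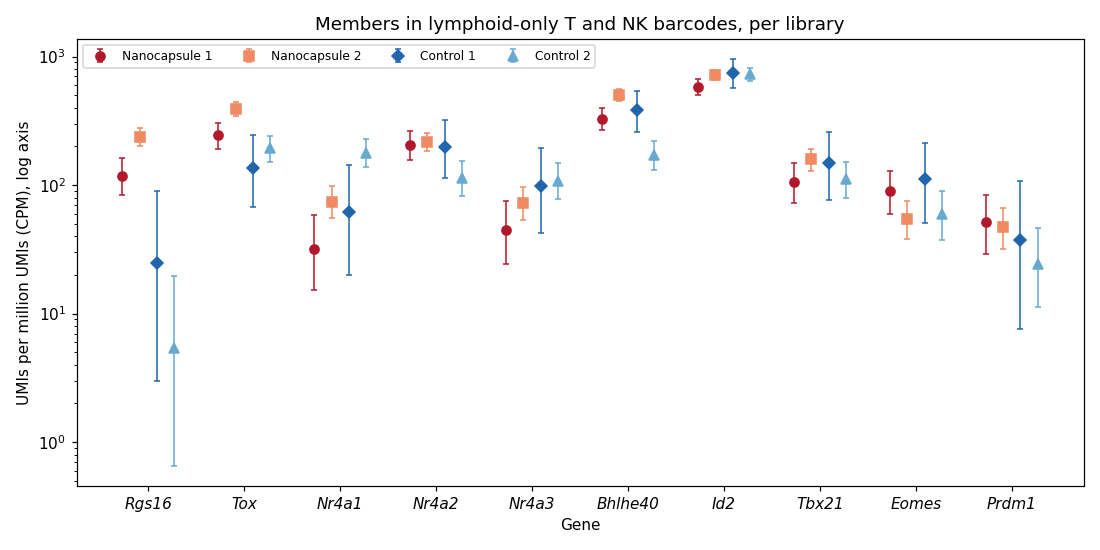
CPM of each of the 10 regulators in lymphoid-only T and NK barcodes, on a log axis, with 1 point a library, Nanocapsule left of Control, and 95% Poisson intervals as bars. Rgs16 stood at 119 and 237 CPM in the Nanocapsule libraries and at 24.7 and 5.43 CPM in the Control libraries.

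Few barcodes carried the Rgs16 signal. A UMI of Rgs16 was found in 8 and 21 barcodes of the Nanocapsule libraries, or 16.7% and 35.6%, against 1 and 1 barcodes of the Control libraries, or 4.55% and 1.32%. B barcodes had 0 Rgs16 UMIs in each of the 4 libraries, which allows, by exact upper 95% bounds, up to 7.25% and 15.4% of barcodes with a UMI in the Nanocapsule libraries and 4.93% and 6.72% in the Control libraries. Such bounds limit barcodes with a UMI, not cells that express the gene. Their median depths were 2702 and 3366 UMIs in the Nanocapsule libraries and 1669 and 3048 UMIs in the Control libraries, below those of the lymphoid-only barcodes. Myeloid barcodes, which were deeper than the lymphoid-only ones, had 2 and 0 Rgs16 UMIs in the Nanocapsule libraries and 0 and 1 in the Control libraries. Rgs16 was not confined to lymphoid-only barcodes, and its counts in melanocytic barcodes and levels in stromal barcodes are given below. In Nanocapsule 1 the top lymphoid-only barcode held 22 of the 37 Rgs16 UMIs, and in Nanocapsule 2 it held 55 of the 156. Without that barcode the level was 50.8 and 165 CPM in the Nanocapsule libraries. Each Control library had a single positive barcode, so no such value could be compared with theirs.

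Rgs16 was found in the deeper barcodes. Barcodes with an Rgs16 UMI had median depths of 16538.5 and 16330 UMIs in the Nanocapsule libraries, against 4286.5 and 5714.5 UMIs for barcodes without one. In the Control libraries the single positive barcodes had 14767 and 5064 UMIs, against medians of 2583 and 4218 UMIs for the negative ones. After each barcode was thinned to 1000 UMIs, an alternative chosen after seeing the data, Rgs16 was found in 2 and 7 barcodes of the Nanocapsule libraries, against 0 and 1 of the Control libraries. Among barcodes of at most 10000 UMIs, a limit likewise added after seeing the data, the level was 21.5 and 69.0 CPM in the Nanocapsule libraries, against 0 and 6.18 CPM in the Control libraries. Above that limit, with 7 and 17 barcodes in the Nanocapsule libraries and 1 and 3 in the Control libraries, it was 261 and 338 CPM against 135 and 0 CPM. The groups kept their order in the shallower barcodes, at counts too low for the gene to pass the filter of the test. The part of depth in the called difference was not tested.

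**Figure D2:**
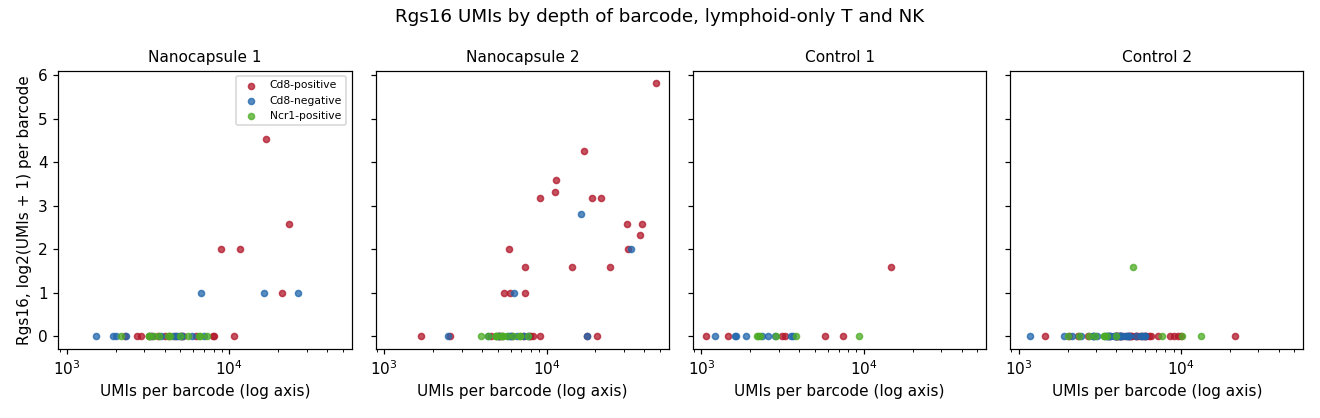
Rgs16 as log2(UMIs + 1) against total UMIs (log axis) of each lymphoid-only barcode, with 1 panel a library, the Nanocapsule libraries left, and colour for the subset. Positive barcodes number 8 and 21 in the Nanocapsule libraries and 1 and 1 in the Control libraries, most of them at the deep end.

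Most of the Rgs16 signal lay in barcodes with a Cd8a or Cd8b1 UMI, here called Cd8-positive. These were 20 and 32 barcodes in the Nanocapsule libraries and 7 and 33 in the Control libraries. Rgs16 was at 218 and 320.4 CPM there in the Nanocapsule libraries, against 54.2 and 0 CPM in the Control libraries, where 3 counts would have been 15.996 CPM in Control 2. In Cd8-negative barcodes without Ncr1 the level was 29.7 and 77.0 CPM in the Nanocapsule libraries, against 0 and 0 CPM in the Control libraries. Barcodes with Ncr1, an activating receptor of NK cells, had 0 and 0 CPM in the Nanocapsule libraries and 0 and 33.3 CPM in the Control libraries. Fitted on Cd8-positive sums alone, an alternative added after seeing the data, the log2 fold was 4.72 without passing the test (edgeR, adjusted p = 0.443). A single UMI sets the Cd8-positive label. Median depths of these barcodes were 5136 and 8693.5 UMIs in the Nanocapsule libraries and 3250 and 4951 in the Control libraries. Cd8-negative barcodes were shallower, at 4747 and 6165.5 against 2376 and 3945 UMIs. The part of depth in the contrast between subsets was not tested.

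The Cd8-positive barcodes with Rgs16 carried other regulators with it. All 5 and 18 such barcodes of the Nanocapsule libraries, and the 1 of Control 1, also had UMIs of Tox, Bhlhe40 and Pdcd1, the PD-1 receptor, and none had Tcf7, the factor of progenitor-like T cells. Control 2 had no Cd8-positive barcode with Rgs16. Among Cd8-positive barcodes without Rgs16, Tcf7 was found in 12 of 15 and 6 of 14 in the Nanocapsule libraries and in 1 of 6 and 20 of 33 in the Control libraries. Tox was found in 6 and 9 of these in the Nanocapsule libraries and in 1 and 16 in the Control libraries. Bhlhe40 was found in 4 and 7 of them against 2 and 9, and Pdcd1 in 0 and 7 against 2 and 7. The Rgs16-positive barcodes were the deeper ones, with medians of 16739 and 15591 UMIs in the Nanocapsule libraries, against 4247 and 6614.5 UMIs for the negative ones. The part of depth in these shares was not tested. Cycling barcodes, those with a UMI of Mki67, Top2a or Pclaf, made up 6 of 8 and 13 of 21 of all Rgs16-positive lymphoid-only barcodes in the Nanocapsule libraries. In the Control libraries they made up 1 of 1 and 0 of 1. Of Rgs16-negative barcodes, 8 of 40 and 8 of 38 were cycling in the Nanocapsule libraries and 5 of 21 and 23 of 75 in the Control libraries. A single UMI sets this label, so it does not stand for 1 level. Pclaf was also among the genes called higher in the Nanocapsule libraries, so the label and the counts that follow are not independent of that call. The cycling barcodes held 183 UMIs of the 3 genes in 14 barcodes and 434 in 21 in the Nanocapsule libraries. In the Control libraries they held 54 in 6 and 31 in 23. The summed level of the 3 cycling genes was 586 and 660.0 CPM in the Nanocapsule libraries, against 667 and 84.1 CPM in the Control libraries. Control 2, without which the Rgs16 call was lost, thus stood apart in it, and its part in the Rgs16 difference was not tested. The pairs of genes in this paragraph are a description, chosen after values were seen.

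**Figure D3:**
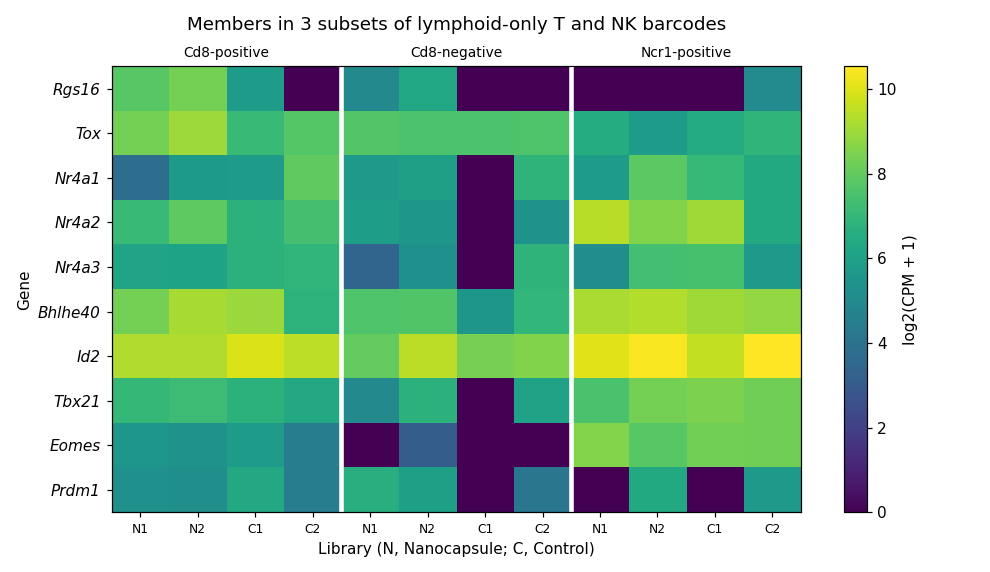
Heat map of log2(CPM + 1), shown as colour, of each regulator (rows) in Cd8-positive, Cd8-negative and Ncr1-positive barcodes of each library (columns; N, Nanocapsule, left of C, Control). Rgs16 and Tox were highest in Cd8-positive barcodes of the Nanocapsule libraries, while Eomes stood highest in Ncr1-positive barcodes of all 4 libraries.

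Tox, an HMG-box factor needed to establish exhausted CD8 T cells, lies at chr4:6686353-6991557 on the minus strand. It stood at 243 and 394 CPM in the Nanocapsule libraries, from 76 and 259 UMIs, against 136 and 193 CPM in the Control libraries, from 11 and 71 UMIs. Both Nanocapsule libraries were above both Control libraries. The log2 fold of 0.93 ± 0.33 did not pass the test (edgeR, adjusted p = 0.436). In Cd8-positive barcodes Tox was at 321 and 507 CPM in the Nanocapsule libraries, against 136 and 213 CPM in the Control libraries. In Cd8-negative barcodes it was at 208 and 185 CPM against 188 and 198 CPM, and in Ncr1-positive ones at 90.7 and 55.5 CPM against 88.0 and 116 CPM. The groups were thus apart in the Cd8-positive barcodes and overlapped in the others. Among lymphoid-only barcodes of at most 10000 UMIs Tox was at 156 and 357 CPM in the Nanocapsule libraries and at 121 and 207 CPM in the Control libraries, so that the groups overlapped. A Tox UMI was found in 45.8% and 59.3% of lymphoid-only barcodes of the Nanocapsule libraries and in 27.3% and 46.1% of those of the Control libraries, against 0 of the 486 myeloid barcodes. The exact upper 95% bounds on myeloid barcodes with a Tox UMI, which limit detection and not expression, were 4.20% and 3.08% in the Nanocapsule libraries and 2.74% and 2.45% in the Control libraries, at median depths of 10862.5 and 13418.5 UMIs against 5685 and 9268 UMIs. Of all 500 Tox UMIs, 83.4% lay in lymphoid-only and 11.6% in mixed barcodes.

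Among the Nr4a receptors, orphan nuclear receptors induced by antigen receptor signalling, the 3 members differed in direction. Nr4a1 was at 32.0 and 74.5 CPM in the Nanocapsule libraries, against 61.8 and 179 CPM in the Control libraries. The groups overlapped, and the log2 fold of −1.29 ± 0.44 did not pass the test (edgeR, adjusted p = 0.436). One barcode held 23 of the 66 Nr4a1 UMIs of Control 2, and without it that library stood at 124 CPM. In the fit without Control 2 the log2 fold was 0.030.

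Nr4a2, which also acts in dopamine neurons and myeloid cells, was at 205 and 217 CPM in the Nanocapsule libraries, against 198 and 114 CPM in the Control libraries. Both Nanocapsule libraries were above both Control libraries, Nanocapsule 1 only slightly, and the log2 fold of 0.64 ± 0.33 did not pass the test (edgeR, adjusted p = 0.643). The top barcode held 14 of the 64 Nr4a2 UMIs of Nanocapsule 1 and 31 of the 143 of Nanocapsule 2. Without the top barcode of each library, Nr4a2 was at 164 and 173 CPM against 182 and 104 CPM, so that the groups overlapped. In 3 of the 4 libraries its highest level among the subsets was in Ncr1-positive barcodes, which stood at 671 and 374 CPM in the Nanocapsule libraries and 528 and 83.1 CPM in the Control libraries. Nr4a3 was at 44.9 and 73.0 CPM in the Nanocapsule libraries, against 98.8 and 108.5 CPM in the Control libraries. Both Nanocapsule libraries were below both Control libraries, at a log2 fold of −0.74 ± 0.36 (edgeR, adjusted p = 0.614). Among barcodes of at most 10000 UMIs the groups overlapped, with Nr4a3 at 48.4 and 138 CPM in the Nanocapsule libraries and 90.7 and 102 CPM in the Control libraries. Scaled by TMM factors, Nr4a3 was the 1 gene of the 10 below in both Nanocapsule libraries. Of the 10 genes, 4 had both Nanocapsule libraries above both Control libraries, namely Rgs16, Tox, Nr4a2 and Prdm1. Over all genes tested, 19.2% were both above and 17.2% both below on the same scale, so that 36.3% did not overlap in either direction.

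Tbx21, or T-bet, drives effector differentiation and type 1 cytokines. It was at 106 and 158 CPM in the Nanocapsule libraries and at 148 and 111 CPM in the Control libraries, so that the groups overlapped (log2 fold 0.18 ± 0.33; edgeR, adjusted p = 0.931). Eomes, the T-box factor of NK and memory cells, was at 89.7 and 54.7 CPM in the Nanocapsule libraries and at 111 and 59.7 CPM in the Control libraries (log2 fold −0.04 ± 0.43; edgeR, adjusted p = 0.996). Replicates of 1 group were further apart than the groups. Eomes stood at 381 and 222 CPM in Ncr1-positive barcodes of the Nanocapsule libraries and at 308 and 299 CPM in those of the Control libraries. In Cd8-negative barcodes it had 0 and 1 UMIs in the Nanocapsule libraries and 0 and 0 UMIs in the Control libraries. Of all 235 Tbx21 UMIs, 80.9% lay in lymphoid-only barcodes.

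Id2, an inhibitor of E-protein factors needed by NK and effector T cells, was at 579.9 and 716 CPM in the Nanocapsule libraries and at 741 and 727 CPM in the Control libraries (log2 fold −0.12 ± 0.25; edgeR, adjusted p = 0.940). Both Nanocapsule libraries were below both Control libraries on this unscaled CPM, and the groups overlapped after TMM scaling. Bhlhe40 is a basic helix-loop-helix repressor with a part in T cell metabolism and cytokine programmes. It was at 327 and 500.3 CPM in the Nanocapsule libraries and at 383 and 171 CPM in the Control libraries. The groups overlapped through Control 1, where one barcode held 14 of 31 Bhlhe40 UMIs (log2 fold 0.80 ± 0.36; edgeR, adjusted p = 0.603). Prdm1, or Blimp-1, a repressor that ends memory potential, was at 51.3 and 47.1 CPM in the Nanocapsule libraries, against 37.1 and 24.4 CPM in the Control libraries. Both Nanocapsule libraries were above both Control libraries, from 16 and 31 UMIs against 3 and 9 UMIs (log2 fold 0.87 ± 0.47; edgeR, adjusted p = 0.658). By its Control libraries alone Prdm1 would not have passed the filter on low counts. Among barcodes of at most 10000 UMIs the groups overlapped, with Prdm1 at 32.3 and 36.5 CPM in the Nanocapsule libraries and 45.3 and 27.8 CPM in the Control libraries. After thinning, Prdm1 was found in 3.58% of barcodes in the Nanocapsule libraries and 3.59% in the Control libraries on average. In all, 6 of the 10 genes had a log2 fold above 0, against 50.8% of genes tested, with a median of 0.41 over the 10 and 0.0085 over all genes.

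**Figure D4:**
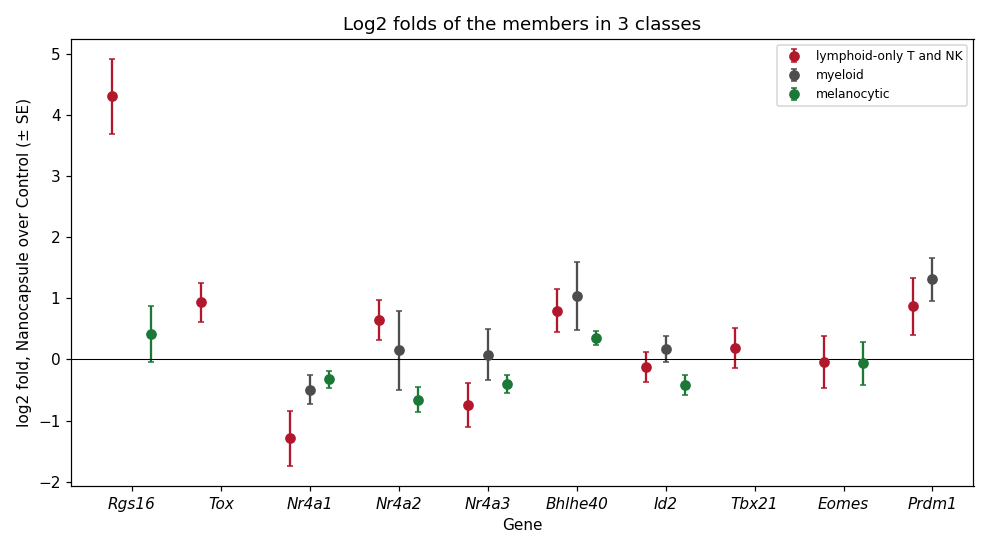
Log2 fold of the regulators in lymphoid-only, melanocytic and myeloid barcodes, Nanocapsule over Control, with standard errors as bars. Rgs16 stood at 4.30 in lymphoid-only barcodes and Nr4a2 lay on opposite sides of 0 in lymphoid-only and melanocytic barcodes.

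Of the genes around these regulators in lymphoid-only barcodes, none was called by edgeR or by DESeq2 in the 6 lists examined. Among 8 checkpoint receptors, 6 had both Nanocapsule libraries above both Control libraries and 1 had both below, against 19.2% and 17.2% of all genes. By their Control libraries alone, Entpd1 (1 and 7 UMIs) and Havcr2 (3 and 2 UMIs) would not have passed the filter on low counts. Cd244a, the 1 below, would not have passed by its Nanocapsule libraries alone (6 and 14 UMIs). Such genes were admitted through the group where they were high. The median log2 fold of the 8 was 1.38, and 5 were higher at an unadjusted p under 0.05, against 4.29% of all genes, and 3.92% were lower at that p. Ctla4 was at 327 and 321 CPM in the Nanocapsule libraries, against 222 and 168 CPM in the Control libraries. Tigit was at 179 and 248 CPM in the Nanocapsule libraries, against 98.8 and 65.1 CPM in the Control libraries, also without overlap (log2 fold 1.58 ± 0.35; edgeR, adjusted p = 0.119). Havcr2, named after its values were seen, had a log2 fold of 2.97 ± 0.64 (edgeR, adjusted p = 0.102). That fold came from 21 and 72 UMIs in the Nanocapsule libraries, against only 3 and 2 UMIs in the Control libraries.

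All 7 progenitor and quiescence factors tested, of 9 listed, had a log2 fold below 0. Of all genes, 50.8% had one above 0. The median of the 7 was −0.81. In both Nanocapsule libraries 2 were below, against 17.2% of all genes, and 3 were lower at an unadjusted p under 0.05, against 3.92%. Klf2, which maintains quiescence and recirculation, was at 567 and 284 CPM in the Nanocapsule libraries and at 420.0 and 716 CPM in the Control libraries. Satb1, a chromatin organiser, was at 282 and 155 CPM against 222 and 477 CPM. Both genes overlapped between the groups. Of 10 effector molecules, 6 were above in both Nanocapsule libraries and 2 below, with a median log2 fold of 0.55, against 19.2% and 17.2% of all genes for both above and both below. At an unadjusted p under 0.05, 4 were higher and 1 lower, against 4.29% and 3.92% of all genes. Ccl3, 1 of the 6 above, would not have passed the filter by its Control libraries alone (30 and 3 UMIs). The chemokine Ccl5 was at 3069 and 4681 CPM in the Nanocapsule libraries and 4089 and 4894 CPM in the Control libraries, and the granule protein Nkg7 at 1615 and 2546 CPM against 1618 and 1272 CPM. Ifng, named after its values were seen, had a log2 fold of 2.08 ± 0.38 (edgeR, adjusted p = 0.0604). Of 9 partner factors tested of 12, 8 had a log2 fold above 0, against 50.8% of all genes, and the median was 0.28. Both Nanocapsule libraries were above for 5 of them and below for 1, against 19.2% and 17.2% of all genes. Ikzf2, or Helios, was at 352 and 309 CPM in the Nanocapsule libraries, against 284 and 236 CPM in the Control libraries, and Hif1a, the hypoxia factor, at 186 and 217 CPM against 235 and 307 CPM. The 5 activation-induced genes tested of 7 had a median of −0.29, with 1 lower at an unadjusted p under 0.05, against 3.92% of all genes. Among them the co-stimulatory receptor Tnfrsf9 was at 455 and 489.7 CPM in the Nanocapsule libraries and 543.5 and 217 CPM in the Control libraries, and Cd69, a retention marker, at 231 and 179 CPM against 173 and 379.8 CPM. The 7 immediate early and dissociation genes tested of 10 had a median of −0.30. Both Nanocapsule libraries were below for 3 of the 7 and above for 0, against 17.2% and 19.2% of all genes. Junb of this list was at 1205 and 1037 CPM in the Nanocapsule libraries, against 1458 and 1679 CPM in the Control libraries. Dusp1, a phosphatase of MAP kinases, was at 282 and 309 CPM against 420.0 and 298 CPM.

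Outside the lymphoid set, Nr4a1, Nr4a2, Nr4a3, Id2 and Bhlhe40 were mostly counted in melanocytic barcodes. These held between 90.9% and 98.2% of each gene's UMIs, pooled over the 4 libraries. By library the share ran from 78.9% for Nr4a2 in Nanocapsule 2 to 99.3% for Nr4a3 in Control 1. The class held 94439865 of 98726024 and 89069138 of 95569616 UMIs of kept barcodes in the Nanocapsule libraries. In the Control libraries it held 128536650 of 131565138 and 84252891 of 89364619. Such shares alone thus do not show that a gene was higher there. In melanocytic barcodes, edgeR called 0 of the 7 genes tested, beside 1 of 16319 genes in all, or 0.00613%, while 1257 genes had an unadjusted p under 0.05 and DESeq2 called 117. Nr4a2 was at 19.2 and 20.03 CPM in the Nanocapsule libraries, against 23.7 and 38.8 CPM in the Control libraries (log2 fold −0.66 ± 0.20; edgeR, adjusted p = 0.628). Nr4a3 was at 94.5 and 93.4 CPM in the Nanocapsule libraries, against 101 and 149 CPM in the Control libraries. Nr4a1 was at 68.0 and 81.8 CPM against 80.4 and 109 CPM, and Id2 at 172 and 220.1 CPM against 218 and 311 CPM. None of these passed the test, while Bhlhe40 was at 209.5 and 203 CPM against 174 and 149 CPM (log2 fold 0.35 ± 0.12; edgeR, adjusted p = 0.628). Scaled by TMM factors, Bhlhe40 was the 1 gene of the 7 above in both Nanocapsule libraries, against 19.7% of genes tested, and Nr4a1, Nr4a2, Nr4a3 and Id2 were the 4 below in both, against 18.9%. Rgs16 was at 0.699 and 1.70 CPM in melanocytic barcodes of the Nanocapsule libraries and at 0.646 and 1.18 CPM in those of the Control libraries. These low levels came from 66 and 151 UMIs against 83 and 99 UMIs. In every library but Nanocapsule 2, this class thus held more Rgs16 UMIs than the lymphoid-only barcodes.

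In myeloid barcodes edgeR called none of the 6 genes tested and none of the 8518 genes in all, or 0%, with 297 genes at an unadjusted p under 0.05 and 7 called by DESeq2. Of the 277 Prdm1 UMIs, 44.4% were myeloid. Prdm1 was at 34.9 and 27.1 CPM in the Nanocapsule libraries, against 14.1 and 12.8 CPM in the Control libraries (log2 fold 1.31 ± 0.35; edgeR, adjusted p = 0.999). Rgs16 in stromal barcodes, of which there were 7 and 7 in the Nanocapsule libraries and 17 and 20 in the Control libraries, was at 887 and 23.2 CPM against 74.7 and 3.24 CPM. Nanocapsule 1 alone stood apart there. Nr4a1 in B barcodes was at 261 and 269 CPM in the Nanocapsule libraries, against 143 and 231 CPM in the Control libraries.

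**Figure D5:**
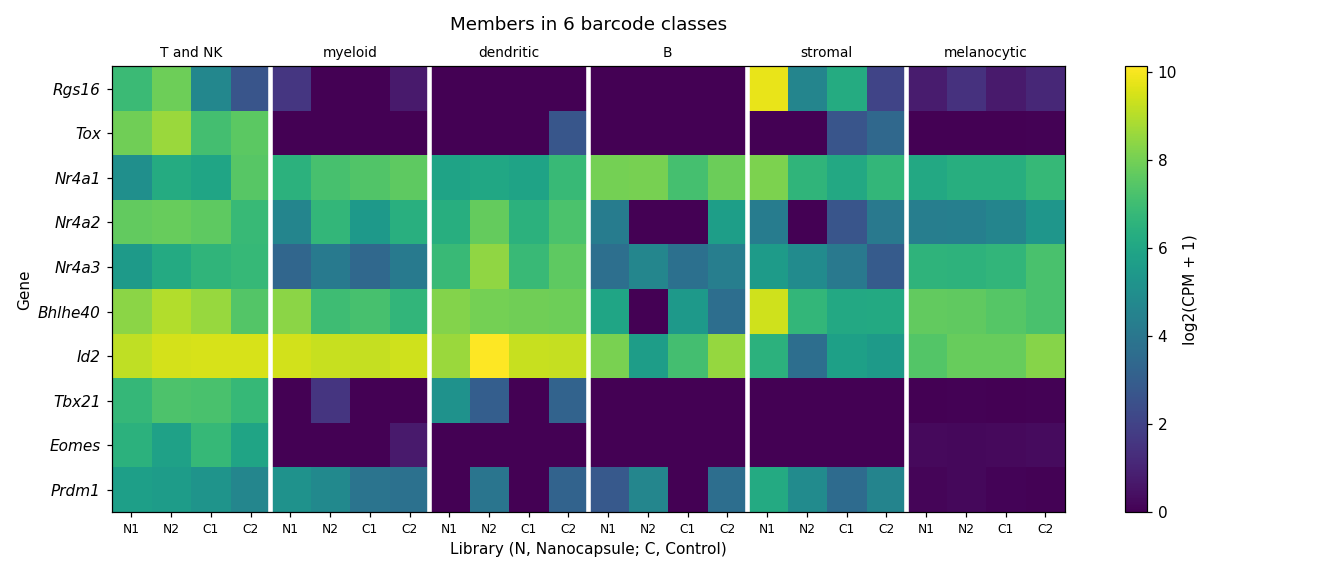
Heat map of log2(CPM + 1), shown as colour, of each regulator (rows) in 6 barcode classes of each library (columns; N, Nanocapsule, left of C, Control). Tox, Tbx21 and Eomes were brightest in T and NK barcodes, while Rgs16 was bright in stromal barcodes of Nanocapsule 1 too, at 887 CPM.

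Whether the Nanocapsule effect differed between classes was tested as the difference of the 2 effects with the library as a block, a test added after seeing the data. Against melanocytic barcodes, 34 of 5088 genes were called, or 0.668%. Rgs16 was among them, with a difference of 4.004 ± 0.81 on the log2 scale (edgeR, adjusted p = 0.0477), resting on the same 2 and 2 UMIs of the Control libraries. Nr4a2 had a difference of 1.38 ± 0.37 (edgeR, adjusted p = 0.175), and Nr4a1 one of −0.96 ± 0.41 (edgeR, adjusted p = 0.451). Against myeloid barcodes edgeR called 0 of 4979 genes, with 302 at an unadjusted p under 0.05; DESeq2 was not run on this difference. Rgs16 did not pass the filter in that fit and was not tested against myeloid barcodes.

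The pattern of each gene across classes was compared with that of 9061 genes, by Pearson correlation of log2(CPM + 1) over 16 sums of 4 classes in 4 libraries. These classes were lymphoid-only T and NK, myeloid, B and melanocytic barcodes. Stromal and dendritic barcodes were too few in some libraries and were left out. The high stromal level of Rgs16 in Nanocapsule 1 thus did not enter. The sums share libraries and differ in depth, so these values are descriptions. Tox was most like Trbc1, a T cell receptor constant region, at 0.998. Tbx21 was most like Cd5 at 0.995, and Eomes most like Samd3 at 1.00, then Ncr1 at 0.998. Rgs16 was most like the T cell receptor segment Trbv13-1 at 0.943, then Ifng at 0.939. Prdm1 was most like the integrin Itgal at 0.967. The broadly counted genes had other neighbours, with Nr4a1 most like Man2a1 at 0.899, Nr4a2 most like Abcb1b at 0.940, Nr4a3 most like Bzw2 at 0.966, Id2 most like Tbc1d2b at 0.949, and Bhlhe40 most like Snapc1 at 0.955.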

How the data were processed

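The authors deposited raw UMI counts per gene and barcode for each library. Per the submitters' processing notes these were made with Cell Ranger 2.1.1 on mm10, while the matrix headers name Cell Ranger 4. Barcodes with at least 1000 UMIs were kept and classed by marker UMIs. A lymphoid-only barcode had at least 2 T and NK UMIs and no signal of another class: fewer than 5 myeloid, 2 B and 5 stromal UMIs, and a melanocytic share under 0.2 times the median of that library's barcodes with at least 20000 UMIs. No doublet caller was run, and the 13 mixed barcodes were left out of the main sums. Counts were summed per library and class. Genes passing edgeR's expression filter were tested with edgeR 4.0.16 (TMM, quasi-likelihood, Nanocapsule over Control, 4 libraries) in R 4.3.3, called at an adjusted p under 0.05, and with DESeq2 1.42.0 as an alternative. The tests were tested on simulated data. CPM are per 1000000 UMIs of the set, without TMM unless both-above and both-below counts are given. Sums, intervals and figures used Python 3.11.15, numpy 2.4.6, scipy 1.17.1, pandas 2.3.3 and matplotlib 3.10.9. Total UMIs were 108441772 and 105967866 in the Nanocapsule libraries and 140491491 and 98943390 in the Control libraries. The genes and lists were chosen with earlier results of these data known. In each list the 2 genes of highest mean CPM were named by rule, and others were chosen after values were seen.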

Additional observations from a re-analysis of the deposited data

Results flagged for a closer look

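Nr4a2 moved in opposite directions in 2 classes: both Nanocapsule libraries lay above both Control libraries in lymphoid-only T and NK barcodes, at a log2 fold of 0.64, and below both in melanocytic barcodes, at a log2 fold of −0.66. Neither fold passed the test within its class. The order in lymphoid-only barcodes rested on single barcodes. Without the top barcode of each library, Nr4a2 was there at 164 and 173 CPM in the Nanocapsule libraries. The Control libraries then stood at 182 and 104 CPM, so that the groups overlapped. The difference between the 2 folds, tested with the library as a block after seeing the data, was 1.38 ± 0.37 on the log2 scale and did not pass (edgeR, adjusted p = 0.175). The cause of the opposite directions was not tested.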

How the results depend on the processing

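The number of genes called moved with the processing. In lymphoid-only barcodes edgeR called 6 genes, and the count was 3 with DESeq2, 66 with no filter on low counts, 3 with at least 1500 UMIs a barcode, 3 with at least 3 T and NK UMIs, 0 with the melanocytic limit at 0.1 times the median, and 1 to 41 with each library left out. Of alternatives added after seeing the data, it was 1 at up to 10000 UMIs, 1 after thinning and 0 in Cd8-positive barcodes alone. By the UMI rule 3 genes were called, 71 with no filter and 2 to 219 with a library left out. In melanocytic barcodes 1 was called, 117 with DESeq2, 14 with no filter and 13 to 80 with a library left out. In myeloid barcodes 0 were called, 7 with DESeq2, 63 with no filter and 0 to 240 with a library left out. The labels share replicate numbers without saying that they pair libraries, and same-numbered libraries correlated in their deviations at −0.119 (lymphoid-only), 0.031 (UMI rule), 0.336 (melanocytic) and 0.203 (myeloid). With the replicate block the counts were 0, 8, 258 and 137, in the same order.
The 33 folds of the regulators gave 366 alternative values, of which 322 kept their direction and side of the threshold, 13 passed it, 6 lost it and 25 reversed. Rgs16 in lymphoid-only barcodes lay between 3.01 and 5.05 and lost its call without Control 2, with the replicate block, with the limit at 0.1 and in Cd8-positive barcodes alone. By the UMI rule it lost its call with DESeq2 (3.85) and without Nanocapsule 2 (3.49). Without Control 1, Tox (1.18), Nr4a1 (−1.02), Bhlhe40 (1.51) and Prdm1 (1.68) passed by the UMI rule, and Nr4a2 (−0.94) and Nr4a3 (−0.61) in melanocytic barcodes; without Nanocapsule 2, Bhlhe40 (1.62) and Prdm1 (1.56) passed in myeloid barcodes. With the replicate block, Nr4a1 (−0.32), Id2 (−0.41) and Bhlhe40 (0.36) passed in melanocytic barcodes, and Bhlhe40 (0.87) and Prdm1 (1.29) in myeloid barcodes. Leaving out 1 library at a time, folds that reversed ranged in lymphoid-only barcodes from −2.03 to 0.030 for Nr4a1 (0.030 without Control 2), −0.24 to 0.0092 for Id2 (0.0092 without Nanocapsule 1), −0.14 to 0.39 for Tbx21 (−0.14 without Nanocapsule 2) and −0.55 to 0.36 for Eomes (0.36 without Nanocapsule 2, 0.24 without Control 1). By the UMI rule they ranged from −1.34 to 0.30 for Nr4a1, −0.17 to 0.83 for Nr4a2, −0.32 to 0.057 for Id2, −0.044 to 1.51 for Bhlhe40, −0.43 to 0.59 for Tbx21 and −1.06 to 0.47 for Eomes, reversing without Control 2 for all but Id2, which did so without Control 1. Tbx21 and Eomes also reversed there without Nanocapsule 2 (−0.14) and Nanocapsule 1 (−0.50). In melanocytic barcodes Rgs16 ranged from −0.33 to 0.90 and Eomes from −0.27 to 0.11, both reversing without Nanocapsule 2. In myeloid barcodes Nr4a2 ranged from −1.28 to 0.74 and Nr4a3 from −0.42 to 0.52, reversing without Nanocapsule 2 and without Control 1 (−0.19 and −0.18). With other settings Eomes alone reversed, in lymphoid-only barcodes to 0.049 with no filter and 0.45 at up to 10000 UMIs, and by the UMI rule to −0.28 with DESeq2, −0.22 with the replicate block, −0.012 at 1500 UMIs and −0.12 at 3 T and NK UMIs. The causes were not tested. The 22 lymphoid-only barcodes of Control 1 limit the low genes.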
